A study of Mus musculus with 47 samples.

Results

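FOSB and FOSL2 binding were compared in control NMuMG cells after 48 h of transforming growth factor β1 (TGFβ1), with 1 chromatin immunoprecipitation sequencing (ChIP-seq) library for each factor. All peaks of both lists on the assembled chromosomes entered the comparison, 188 for FOSB and 3444 for FOSL2, of 806216 peaks in the 32 lists of the series. NMuMG is a mouse mammary gland epithelial line. The control cells received 5 ng/ml TGFβ1, and the prefix sgCt in their library names is not explained in the labels. FOSB was precipitated with an antibody from Invitrogen and FOSL2 with one from Santa Cruz, after crosslinking with formaldehyde only, and both lists name an input by the same label. Lists of untreated control cells (0 h) and of Pbrm1 knockout (KO) cells, which lack a subunit of the PBAF chromatin remodeller, are used only beside this comparison. With 1 library per factor no spread between libraries is known, so all values below are descriptions without a test, and a difference between the lists cannot be told apart from a difference between antibodies or libraries. Intervals are exact binomial at 95% for shares, come from order statistics for medians, and cover counting error only. Read totals were not used here, and the depth of each library is unknown.

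FOSB and FOSL2 belong to the FOS family of basic leucine zipper proteins. A FOS protein binds DNA as a dimer with a JUN protein, and the dimer, called AP-1, recognises the short palindrome TGANTCA, where N is usually C or G. Dimers of related ATF and CREB proteins favour TGACGTCA, the cyclic AMP response element (CRE), which is 1 base longer. AP-1 is known for its action at enhancers and at genes that respond to growth factors, TGFβ among them.

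Sequence could be read at promoters only, as the RefSeq windows of GRCm38.p6 from 250 bases before a transcription start to 50 after it. The first 3 sequences below are from promoters with a FOSB summit whose peak lay inside a FOSL2 peak. They are shown for their AP-1 sites, the nearest of which is 20, 28 and 70 bp from the summit, in the order printed. The next 3 are from promoters with a FOSB summit whose peak lay outside FOSL2, and hold no such site. The last is the start of Atg5, also outside FOSL2, and is shown for its CRE. All run 5′ to 3′ on the gene's strand, and capitals mark TGANTCA or TGACGTCA. The 7 genes were chosen for these sequences after their values were seen, although Dynll1 and Herpud1 are also named by significance. The first 6 cover the 150 bases up to the base before the start, at chr2:152105374-152105523 (plus strand) for Srxn1, chr8:94984249-94984398 (plus) for Adgrg1, chr10:19015411-19015560 (minus) for Tnfaip3, chr5:115300991-115301140 (minus) for Dynll1, chr8:94386279-94386428 (plus) for Herpud1 and chr3:96557807-96557956 (plus) for Txnip. The Atg5 stretch is chr10:44268327-44268356 (plus), from position -12 to position 18 about the start.
Srxn1: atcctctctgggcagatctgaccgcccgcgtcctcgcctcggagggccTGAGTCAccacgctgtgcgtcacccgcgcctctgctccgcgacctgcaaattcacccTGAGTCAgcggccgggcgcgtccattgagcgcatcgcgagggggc
Adgrg1: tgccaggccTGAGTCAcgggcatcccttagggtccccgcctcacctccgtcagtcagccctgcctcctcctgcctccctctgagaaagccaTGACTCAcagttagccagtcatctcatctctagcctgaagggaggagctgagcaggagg
Tnfaip3: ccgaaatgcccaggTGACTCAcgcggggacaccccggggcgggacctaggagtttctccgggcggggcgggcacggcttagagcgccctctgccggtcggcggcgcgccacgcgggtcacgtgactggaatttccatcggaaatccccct
Dynll1: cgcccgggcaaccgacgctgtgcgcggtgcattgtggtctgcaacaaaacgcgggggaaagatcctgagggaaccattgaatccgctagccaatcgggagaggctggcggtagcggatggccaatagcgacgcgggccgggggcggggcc
Herpud1: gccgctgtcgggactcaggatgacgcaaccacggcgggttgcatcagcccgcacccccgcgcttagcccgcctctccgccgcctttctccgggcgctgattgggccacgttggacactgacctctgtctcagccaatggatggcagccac
Txnip: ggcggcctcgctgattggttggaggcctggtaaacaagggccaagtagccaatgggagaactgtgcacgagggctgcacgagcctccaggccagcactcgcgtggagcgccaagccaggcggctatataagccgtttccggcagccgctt
Atg5: cgtggtcttggTGACGTCAtctccgggcgc

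Most FOSB peaks lay inside FOSL2 peaks. Of the 188 FOSB peaks, 138 overlapped a FOSL2 peak by at least 1 bp, which is 73.4% (95% interval 66.5 to 79.6%), and 50 did not. Seen from the longer list, the same 138 pairs were 4.01% of the FOSL2 peaks (3.38 to 4.72%), and each FOSB peak met a single FOSL2 peak. The 138 pairs were nearly centred on each other: the summits lay a median of 33 bp apart (25 to 38 bp), 96 of the 138 within 50 bp and 125 within 100 bp. The FOSL2 peak was the wider of the pair at 130 sites, with a median width of 371 bp against 237.5 bp for FOSB. The deposited pileup, the reads stacked at a peak, was higher for FOSL2 at 124 of the 138, with medians of 37 and 21 reads. Of the 50 FOSB peaks outside FOSL2, 0 had a FOSL2 peak within 1 kb and 2 had one within 10 kb. The median distance was 113860 bp, which was not compared with other positions in the genome. A share of 0 of 50 allows up to 7.11% (exact interval).

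FOSB was more frequent at the most significant FOSL2 peaks than at the rest. Peaks were ranked within each list by −log10 q, the significance of the peak against the input, and ranks were set on a percentile scale where 100 is the most significant. The FOSL2 peaks with FOSB had a median percentile of 81.7 (71.5 to 88.4), against 47.7 for the 3306 FOSL2 peaks without FOSB. Of the 138, 109 were above the 50th percentile of the FOSL2 list and 52 in its top 10%, where −log10 q was at least 26.1. In that top 10%, 15.6% of the FOSL2 peaks had FOSB (11.9 to 20.0%), and in the next 10% of the list 5.52% (3.36 to 8.49%). The share was 0.824 to 4.03% in the 8 classes of 10% below these. Of the 10 most significant FOSL2 peaks, 9 had a FOSB peak. The first of them stood at only 1.84-fold. Those ranked 5, 6, 7 and 10 were on chromosome 19, where FOSL2 peaks had FOSB more often, as described below.

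**Figure D1:**
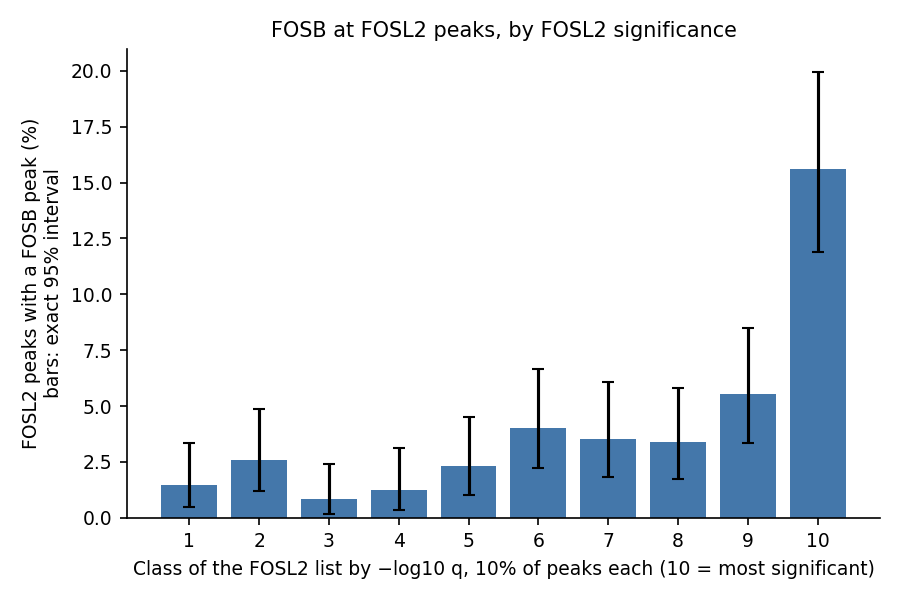
Share of FOSL2 peaks with a FOSB peak (y axis, %) in 10 classes of the FOSL2 list, each about 10% of its peaks by −log10 q (x axis, class 10 is the most significant), control cells at 48 h. Bars are shares with exact 95% intervals from 1 library per factor; the share is 15.6% in class 10 and 5.52% or less in each of the others.

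In the full lists, which differ in length, the reverse did not hold to the same degree: FOSB significance separated peaks inside and outside FOSL2 little. Peaks inside FOSL2 had a median FOSB percentile of 51.6 (44.9 to 58.0) and peaks outside 35.9 (29.5 to 65.2), and these intervals overlap. In 4 classes of like size, from the least to the most significant FOSB peaks, 70.8, 70.2, 78.3 and 74.5% lay inside FOSL2. Among the 138 pairs the ranks in the 2 lists were weakly related, with a Spearman rho of 0.24 across peaks that share an input and chromatin. It was 0.38 over the 35 pairs of chromosome 19 and 0.17 over the other 103, where the Fisher z interval, which treats peaks as independent, was -0.02 to 0.36 and includes 0. Lists of equal length gave a smaller overlap, and 37 of the 188 FOSB peaks (19.7%) met one of the 188 most significant FOSL2 peaks. For these 37 pairs the median percentile was 71.5 in the shortened FOSL2 list (52.4 to 82.7) and 65.7 in the FOSB list (48.1 to 82.2). These intervals overlap and rho was 0.54, so the difference between the 2 directions was not clear at equal length.

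**Figure D2:**
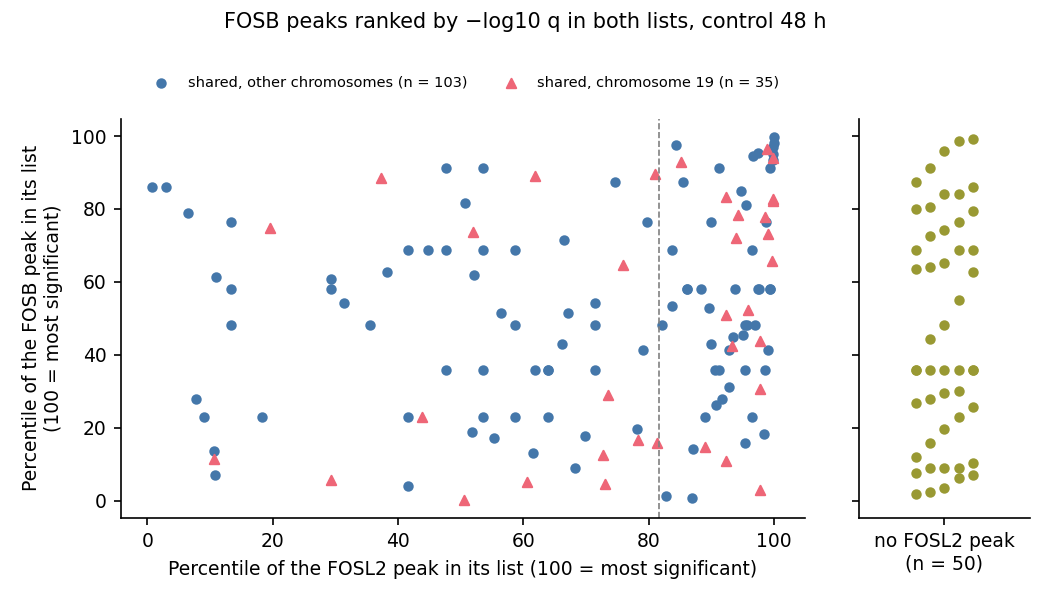
Percentile of each FOSB peak in the FOSB list (y axis) against the percentile of the FOSL2 peak it overlaps in the FOSL2 list (x axis), both by −log10 q with 100 the most significant; the right panel holds the 50 FOSB peaks with no FOSL2 peak, spread sideways for legibility. The dashed line is the median FOSL2 percentile of the 138 pairs, 81.7, against 50 at the middle of the axis, and the points spread over the whole height.

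The strongest shared peaks lay in and around genes of varied function. The peak ranked first in both lists, on chromosome 2 at 98666603 to 98667299, stacked 20233 FOSB reads and 16160 FOSL2 reads at only 2.54 and 1.84 times the input, was also present in all 4 lists of FOSB and FOSL2 at 0 h, and is over 100 kb from a gene. The next was inside Nell2, which encodes a secreted glycoprotein with EGF-like repeats (chr15:95276539-95277057), with 58 FOSB reads, a fold enrichment over input of 15.8 and a −log10 q of 49.2 for FOSB. Its FOSL2 peak was the second of that list, with 187 reads, 46.8-fold and −log10 q of 251.6. Atxn1, the gene of a nuclear polyglutamine protein, held the FOSB peak ranked 6 and the FOSL2 peak ranked 4 (chr13:45623779-45624319), with 45 FOSB and 109 FOSL2 reads. The peak 3482 bp from an end of Ankrd12 (chr17:65961540-65962222) was ranked 10 for FOSB and 3 for FOSL2. These 3 genes thus stood near the top for both factors. The sites of Atxn1 (27 reads, 7.01-fold) and Ankrd12 (16 reads, 3.81-fold) were also in the control FOSL2 list at 0 h. That of Nell2 was in no control list of either factor at 0 h.

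Camk2d, which encodes a calcium and calmodulin dependent kinase subunit, differed from these in its FOSL2 rank. Its peak (chr3:126661013-126661329) was ranked 5 for FOSB with 44 reads and 525 for FOSL2 with 35 reads, and its summits were 4 bp apart. Close to epithelial genes, a peak 1086 bp upstream of the start of Krt8, a keratin of simple epithelia, was ranked 9 for FOSB (33 reads, 8.97-fold) and 90 for FOSL2 (53 reads, 13.3-fold), at chr15:102005286-102005638. Ccnd3, which encodes cyclin D3, held a peak ranked 11 for FOSB and 118 for FOSL2. Kank1, the gene of an adaptor at focal adhesions, held a peak ranked 12 and 6, and a peak 28766 bp from an end of Noct, a gene under circadian control, was ranked 13 and 8. The peak ranked 7 for FOSB and 39 for FOSL2 was 4902 bp upstream of Gal, which encodes the peptide galanin.

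Some pairs had unlike ranks in the 2 lists. The 5 pairs that leaned most to FOSL2 were in or near Ms4a15, Btbd16, Fads3, Dnase2b and Azin1. At Ms4a15 the FOSL2 peak was ranked 79 of 3444 (−log10 q 42.9) and the FOSB peak 183 of 188 (−log10 q 2.14). Azin1, the gene of an inhibitor of antizyme, followed the same order with a FOSL2 rank of 54 and a FOSB rank of 154. The 5 pairs that leaned most to FOSB were in or near Dst, Itgb1, Sfi1, Rnf39 and Golga7b. At Dst, which encodes the cytoskeletal linker dystonin, FOSB was ranked 26 (−log10 q 10.2) and FOSL2 3413 (−log10 q 3.09). The peak 18379 bp from an end of Itgb1, the integrin β1 gene, was also ranked 26 for FOSB with 24 reads and 3343 for FOSL2 with 16 reads, but its summits lay 465 bp apart, the largest offset of the 138. The pair in Sfi1 rested on 1.71-fold enrichment for FOSB and 1.52-fold for FOSL2.

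FOSL2 peaks without FOSB began at rank 9 of the FOSL2 list. This peak lay 31712 bp from an end of Coq2, an enzyme gene of coenzyme Q synthesis, and had 75 reads, 19.8-fold and −log10 q of 71.7. It was followed by peaks in Sh3gl3 (74 reads), Mr1 (76 reads) and Emp3 (71 reads), the last with its summit 85 bp past the start of the gene. Peaks in or near Ndst3, Slc37a1, Pikfyve, Htra3 and Gm4832 came next, at 69 to 76 reads, with 1 peak far from a gene at 67 reads. Each of these 10 had more FOSL2 reads than Camk2d or Krt8, where both factors were found, and each was also in the FOSL2 list of KO cells at 48 h.

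The 50 FOSB peaks outside FOSL2 were led by a pair of sites that also stood in FOSB lists of other conditions. Dynll1 encodes the dynein light chain LC8, and its promoter peak (chr5:115300843-115301267) had 173 reads, 48.3-fold and −log10 q of 238, the highest fold of the FOSB list. A peak was there in the control FOSB list at 0 h (119 reads, 24.8-fold), in KO cells at 0 h (106 reads, 27.6-fold) and in KO cells at 48 h (126 reads, 37.1-fold), and in no FOSL2 list. The other site, on chromosome 9 at 35305302 to 35305549 and 29345 bp from an end of Rpusd4, stacked 10071 reads at 2.00-fold, and was also in the control list at 0 h (10167 reads) and the KO list at 48 h (9181 reads). Both sites thus had a peak in a FOSB list without TGFβ1. At the chromosome 9 site the control enrichment at 0 h was only 1.91-fold, so reads were heavily stacked there in the input too. That peak is not comparable with the one at Dynll1.

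Below these 2 the values were those of ordinary peaks. Zcchc2 held a peak of 35 reads (9.86-fold) and Has1, which encodes a hyaluronan synthase, one of 26 reads (7.50-fold). Rheb, a small GTPase that activates mTORC1, held one of 25 reads, and Mical2, an actin-oxidising enzyme, one of 24 reads. Ttc39a and Mllt3 also had 24 reads each, and Herpud1, an endoplasmic reticulum stress gene, and Tspo, a mitochondrial outer membrane protein, 23 each. Over all 50 the median was 21 reads, the same as the 21 reads of the 138 inside FOSL2, and the median fold was 5.28 against 5.31. A peak 10067 bp from an end of Snai1, the gene of an EMT transcription factor, had 21 reads at 6.11-fold, was 21718 bp from a FOSL2 peak and overlapped one in KO cells; Snai1 was singled out after its value was seen.

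Some peaks outside the control FOSL2 list were in the FOSL2 list of KO cells, which is longer (7381 peaks). Of the 50, 20 overlapped a KO FOSL2 peak and 30 overlapped none in either list at 48 h. The 20 include Rheb, Mical2, Ttc39a and Tspo, and the 30 include Dynll1, Zcchc2, Has1, Mllt3 and Herpud1. Thus 158 of the 188 FOSB peaks met FOSL2 in the control or the KO list, and 151 (80.3%, 73.9 to 85.7%) met the KO list. In the KO cells themselves 27 of 31 FOSB peaks (87.1%, 70.2 to 96.4%) lay inside FOSL2, and those FOSL2 peaks had a median percentile of 96.6 in their list. Untreated cells give little to compare, with 4 FOSB and 7 FOSL2 control peaks, and 5 of the 188 FOSB peaks met one of them.

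Promoters were few, and the sites they held were counted both by summit and by overlap. The motif TGANTCA, which reads the same on both strands, was in 2565 of 32851 promoter windows (7.81%), and TGACGTCA, likewise palindromic and not containing TGANTCA, in 588 (1.79%). Of the 69 windows with a FOSL2 summit, 66 held TGANTCA (95.7%, 87.8 to 99.1%), and the summit was a median of 7 bp from the centre of the nearest one. Of the 7 windows with the summit of a FOSB peak inside FOSL2, 6 held it, among them Srxn1, Adgrg1 and Tnfaip3, shown above. Of the 7 windows with the summit of a FOSB peak outside FOSL2, 0 held it (0 to 41.0%) and 2 held TGACGTCA. Of the windows that a FOSB peak overlapped anywhere, 6 of 8 held TGANTCA for peaks inside FOSL2 (34.9 to 96.8%) and 1 of 9 for peaks outside (0.281 to 48.2%), and these intervals overlap. The 1 is a window of Gm32287 whose AP-1 site lies 20 bp from the summit of a FOSB peak, while the summit itself falls in another window of that gene, which holds no such site and is counted among the 7. Those 2 are the facing promoters of Atg5 and Gm40637, which share 1 peak and 1 site, and Dynll1 shares its peak with the facing Gm13830, so the 7 windows stand for fewer sites. For comparison, TGANTCA was in 3.82% of the windows that overlap an H3K4me3 peak at 48 h.

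**Figure D3:**
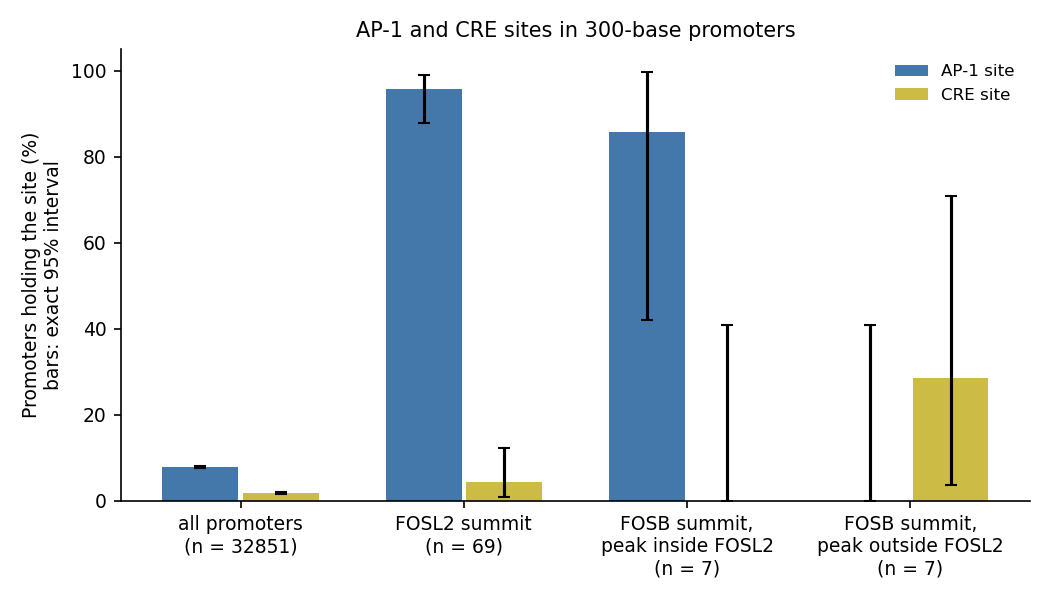
Share of 300-base RefSeq promoter windows (y axis, %) that hold the AP-1 site TGANTCA (blue) or the CRE TGACGTCA (yellow), for all windows and for those that contain a FOSL2 summit or the summit of a FOSB peak inside or outside FOSL2; bars are shares with exact 95% intervals. The AP-1 site is in 95.7% of windows with a FOSL2 summit and in 0 of 7 with a FOSB summit outside FOSL2, where the interval reaches 41.0%; counted by any overlap with a FOSB peak outside FOSL2 it is in 1 of 9 windows.

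Apart from that of Dynll1, described above, the promoter peaks named by their sequences had moderate values. Srxn1, which encodes the antioxidant enzyme sulfiredoxin, had 23 FOSB reads (6.67-fold) and 26 FOSL2 reads (6.81-fold), with the FOSB summit 62 bp before the start and 20 bp from the centre of the nearer of its 2 AP-1 sites. Adgrg1, an adhesion G protein-coupled receptor gene, had 20 FOSB and 36 FOSL2 reads. Tnfaip3, which encodes the NF-κB inhibitor A20, had 17 and 27 reads, and its FOSB summit was 70 bp from its AP-1 site. All 3 had more FOSL2 than FOSB reads. Txnip, the gene of a thioredoxin-binding protein, had 19 FOSB reads and its nearest FOSL2 peak 397203 bp away. Atg5, an autophagy gene, had 22 FOSB reads, with the summit 23 bp past the start and 21 bp from the CRE. The absence of a motif holds for these letters in these windows only.

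Chromatin features differed between the classes of peaks. BRG1, the ATPase of the SWI/SNF remodellers, had a peak in untreated control cells at 83.3% of the FOSB peaks inside FOSL2 (76.0 to 89.1%) and at 60% of those outside (45.2 to 73.6%). Among FOSL2 peaks without FOSB the share was 49.2% (47.4 to 50.9%). Among the most significant FOSL2 peaks, the top 10% of the list, BRG1 was at 88.5% of the peaks with FOSB (76.6 to 95.6%, n = 52) and 61.6% of those without (55.6 to 67.3%, n = 281). BRG1 was crosslinked differently from FOSB and FOSL2 and its list is from cells without TGFβ1, so it describes where SWI/SNF was found before treatment. The BRG1 list has 29215 peaks and reaches down to a −log10 q of 1.01.

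ATF3 and promoter features gave no firm order of the FOSB classes inside and outside FOSL2. ATF3, a stress-induced bZIP factor, overlapped 20% of the FOSB peaks outside FOSL2 at 48 h (10.0 to 33.7%). It overlapped 7.97% of those inside FOSL2 (4.05 to 13.8%) and 2.87% of the FOSL2 peaks without FOSB (95 of 3306). H3K4me3, the promoter mark, overlapped 16, 7.25 and 2.60% of these 3 classes, in the same order. Gene ends lay within 2 kb of 16, 10.9 and 8.29%, again in that order. For both ATF3 and H3K4me3 the intervals of the 2 FOSB classes overlap, and in the ATF3 list of KO cells at 48 h the order was the other way, with 21.0% inside and 18% outside. Within the class outside FOSL2, 30 FOSB peaks were in neither FOSL2 list. Of these, 30% overlapped ATF3 (14.7 to 49.4%) and 23.3% H3K4me3 (9.93 to 42.3%). Among the 20 inside the KO FOSL2 list the share was 5% for each (1 peak, 0.127 to 24.9%). These intervals overlap as well, so no firm order follows between the 30 and the 20. Against the 138 inside FOSL2, the ATF3 interval of the 30 does not overlap (14.7 to 49.4% against 4.05 to 13.8%), while that of H3K4me3 does. In the ATF3 list of KO cells at 48 h they overlap, at 26.7% of the 30 (12.3 to 45.9%) and 21.0% of the 138 (14.5 to 28.8%). PHF10, a PBAF subunit, had a peak at 48 h at 9.42 and 16% of the FOSB peaks inside and outside FOSL2 in replicate 1. In replicate 2 the shares were 25.4 and 24%, nearly equal, and that list is longer (102434 against 43549 peaks). At 0 h they were 3.62 and 14% in replicate 1 and 6.52 and 18% in replicate 2. At 24 h they were 7.25 and 18%. The share outside was thus higher in each control list except replicate 2 at 48 h, with overlapping intervals throughout.

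Histone marks were counted over the peak and also with 1 kb to either side, which can only raise a share. Within 1 kb of the peak, H3K27ac, a mark of active enhancers and promoters, was found at 48 h at 31.9% of the FOSB peaks inside FOSL2 (24.2 to 40.4%), at 42% of those outside (28.2 to 56.8%) and at 594 of the 3306 FOSL2 peaks without FOSB (95% interval 16.7 to 19.3%). Overlap of the peaks themselves was 7.25, 18 and 4.11%. At 0 h the H3K27ac shares were 29.7, 26 and 13.8% within 1 kb and 17.4, 20 and 5.57% by overlap, so the FOSB classes inside and outside FOSL2 did not keep 1 order. H3K18ac within 1 kb was at 57.2, 70 and 41.5%. At 0 h the H3K18ac shares were 44.9, 24 and 25.8%, so the FOSB peaks outside FOSL2 were then near the level of the FOSL2 peaks without FOSB; the 2 H3K18ac lists were written in different formats and their lengths were not corrected for. H3K4me1, an enhancer mark, was within 1 kb of 5.07, 2 and 1.94% of the 3 classes at 48 h. The first 2 shares are 7 and 1 peaks, and their intervals overlap (2.06 to 10.2% and 0.0506 to 10.6%). At 0 h the H3K4me1 shares were 5.80, 8 and 4.14%, so the FOSB classes did not keep 1 order here either.

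**Figure D4:**
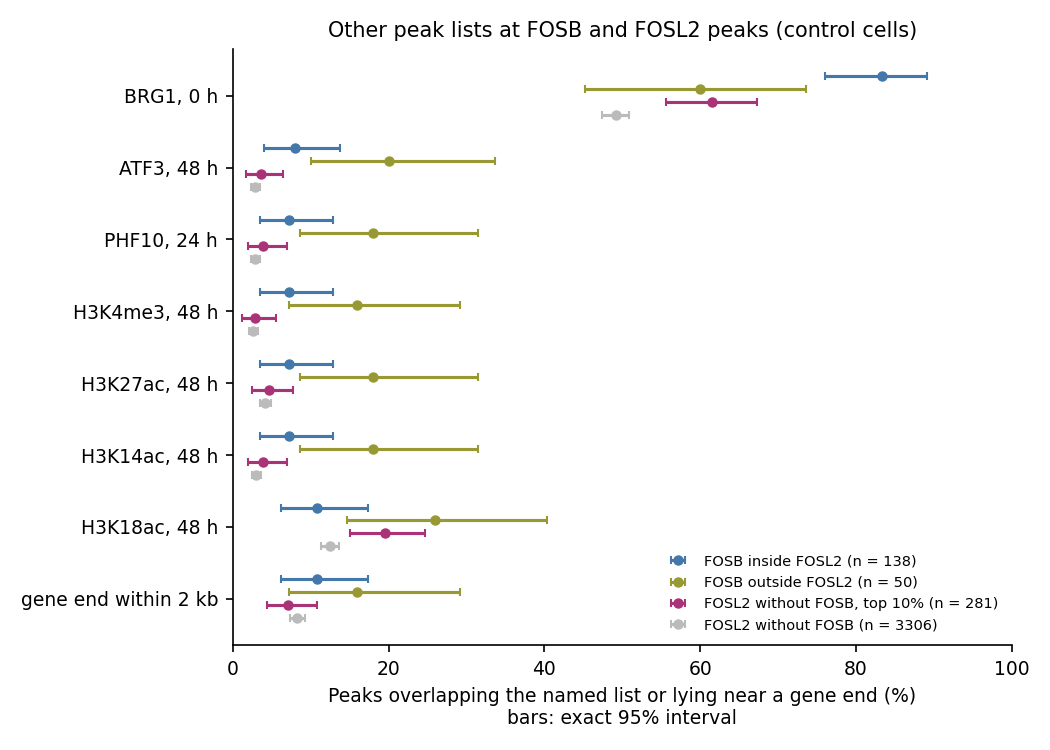
Share of peaks (x axis, %) that overlap each named peak list of control cells or lie within 2 kb of a gene end, for FOSB peaks inside FOSL2 (n = 138), FOSB peaks outside (n = 50), FOSL2 peaks without FOSB in the top 10% of their list (n = 281) and all FOSL2 peaks without FOSB (n = 3306); bars are exact 95% intervals. BRG1 at 0 h is highest for FOSB inside FOSL2 (83.3%), and the intervals of ATF3 at 48 h overlap between FOSB outside FOSL2 (20%) and inside (7.97%).

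FOSB peaks were unevenly spread over chromosomes. Chromosome 19 held 40 of the 188 FOSB peaks (21.3%, 15.7 to 27.8%) and 232 of the 3444 FOSL2 peaks (6.74%, 5.92 to 7.63%). The share was 15.4% among the 188 most significant FOSL2 peaks (10.6 to 21.4%) and 22.6% for the 31 FOSB peaks of KO cells (9.59 to 41.1%). It was 25.4% of the FOSB peaks inside FOSL2 (18.3 to 33.5%) and 10% of those outside (3.33 to 21.8%). FOSL2 peaks of chromosome 19 had FOSB more often, at 15.1% (10.7 to 20.4%), than those of chromosome 15 at 7.53% (4.52 to 11.6%) and of the other chromosomes at 2.86% (2.29 to 3.52%). In the top 10% of the FOSL2 list the shares were 32.1, 24.2 and 10.9%. The input level implied by the pileup and fold of each FOSL2 peak moved with this, with medians of 5.65 reads on chromosome 19, 4.30 on chromosome 15 and 3.84 elsewhere. The corresponding FOSB medians were 5.08, 3.89 and 3.60, and their part in the result was not tested. Without chromosome 19, 69.6% of the FOSB peaks lay inside FOSL2 and the median FOSL2 percentile of the shared peaks was 80.2.

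**Figure D5:**
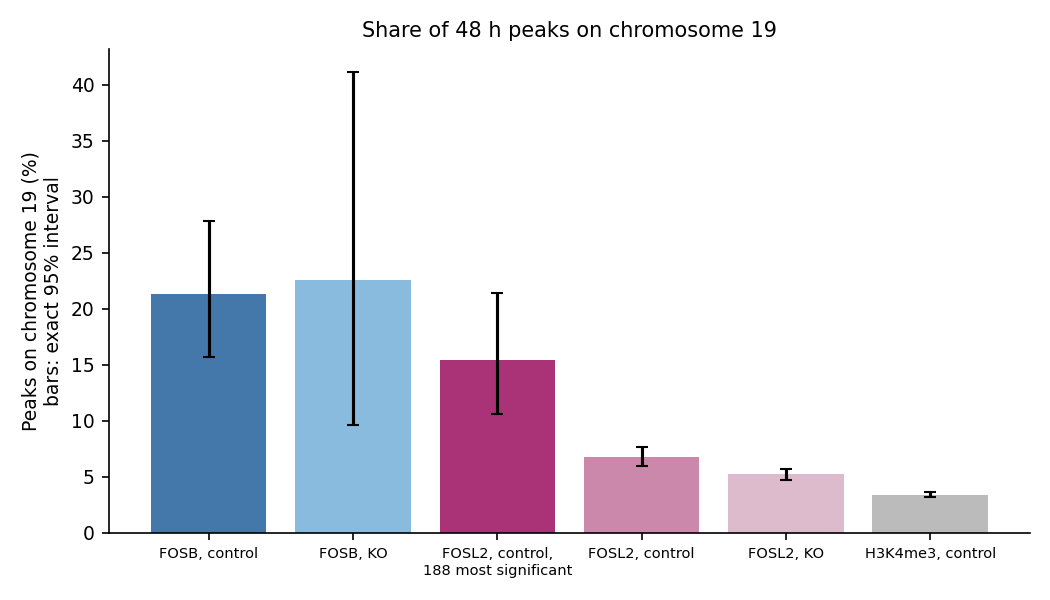
Share of peaks on chromosome 19 (y axis, %) in the FOSB and FOSL2 lists of control and KO cells at 48 h, in the most significant control FOSL2 peaks at the length of the FOSB list, and in the H3K4me3 list of control cells at 48 h; bars are shares with exact 95% intervals. Both FOSB lists are above 20%, the full FOSL2 lists are at 6.74 and 5.20%, and H3K4me3 is at 3.39%.

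Genes were then counted as having a peak in their span or 10 kb to either side, which does not show that the peak acts on the gene. Of 21887 protein-coding genes, 157 (0.717%) had a FOSB peak and 2017 (9.22%) a FOSL2 peak. Both were at 121 genes (0.553%), FOSB alone at 36 (0.164%) and FOSL2 alone at 1896 (8.66%). Among 20 AP-1 and ATF genes, 0 had FOSB and 7 had FOSL2. In the FOS and JUN family itself FOSL2 peaks were at Junb (−log10 q 34.2, 49 reads) and Fosl2 (−log10 q 22.8, 36 reads), and no peak of either factor was at Fos, Fosb, Fosl1, Jun or Jund. The other 5 AP-1 and ATF genes with FOSL2 include the ATF gene Atf7 (−log10 q 27.2) and the small MAF gene Maff (20.2).

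Of 45 mesenchymal and TGFβ response genes 14 had FOSL2, beside 9.22% of all genes, and 1 of the 14 also had FOSB. That gene was Pmepa1, a TGFβ-induced feedback inhibitor, with 18 FOSB reads (rank 113) and 30 FOSL2 reads (rank 958). FOSL2 alone was at Col4a2 and Itga5 (−log10 q 17.5 each), the genes of a basement membrane collagen and an integrin α chain, and at Vim (15.7), the gene of an intermediate filament, among others. Of 35 epithelial genes 8 had FOSL2, and only Krt8 also had FOSB. Ehf (14.7), Jup (13.8) and Cdh1 (9.46), genes of an epithelial ETS factor, plakoglobin and E-cadherin, were among those with FOSL2 alone. Over all genes 6.00% of those with FOSL2 also had FOSB (121 of 2017), so 1 gene in each of these lists is near that background.

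Cytoskeleton and focal adhesion genes had FOSB at 2 of 24 and FOSL2 at 8. For this and the following lists, the shares over all genes were 0.717% for FOSB and 9.22% for FOSL2. Src, the tyrosine kinase gene, had both, with 25 FOSB reads (rank 23) and 36 FOSL2 reads (rank 502). Pxn, which encodes paxillin, had FOSB alone, at 14 reads and rank 185 of 188. Plec, the gene of the linker plectin, had the FOSL2 peak ranked 25 (75 reads) and no control FOSB peak, although the KO FOSB list has one there (24 reads). Of 20 Hippo pathway genes 0 had FOSB and 6 had FOSL2, led by Nf2 (−log10 q 31.0) and Wwc1 (17.7). The housekeeping list had 0 and 1 of 20, and markers of other cell types 0 and 3 of 25 (Itgam, Cdh5 and Adipoq). In control cells at 48 h H3K4me3 was near all 10 epithelial markers, and near 1 of 5 immune markers, 2 of 4 endothelial, 2 of 2 muscle, 3 of 3 neural and 1 of 2 liver markers, so the mark at this distance does not separate cell types; it was near 63.4% of all genes.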

How the data were processed

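The peak lists of 1 FOSB and 1 FOSL2 library were analysed as deposited by the authors. Tools listed in the submitters' processing notes, with no role or setting, are MACS3 3.0.0a7, then deepTools 3.5.1 and Bowtie2 2.3.3, besides fastp 0.19.5 and Partek 11.0.24.0325, and the build is mm10. Each peak carries a deposited pileup signal (stacked reads), deposited −log10 values of a p-value and of a q-value, and a deposited fold, the ratio of ChIP to input. All are the authors' values for single peaks and were compared by rank within a list; pileups set side by side across lists are not corrected for depth. The lists reach down to a −log10 q of 1.50 (FOSB) and 1.58 (FOSL2). Coordinates are printed as deposited; ends are exclusive, and whether starts count from 0 or 1 is not given in the sources used here.

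Python 3.11.15 with pandas 2.3.3, numpy 2.4.6 and scipy 1.17.1 was used. Only the 19 autosomes, X and Y entered. Shared peaks overlap by 1 bp or more. The implied input level is (pileup + 1) divided by fold. Overlap code was tested on simulated lists. Genes and promoters are from RefSeq, GRCm38.p6; the gene table has no strand, so gene ends were used. Genes were named by significance (10 peaks inside FOSL2, 10 outside, 10 of FOSL2 without FOSB), by the 5 largest rank differences each way, and by list membership (up to 4 with FOSL2 alone per list); the text gives a part of them, and some are not reported here. Peaks take the gene they overlap or the nearest end within 100 kb. Members and lists were chosen with earlier results of these data known. Alternatives were stricter overlap, −log10 q or fold of at least 5, lists of equal length, all sequences, ranking by fold and other gene end distances.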

Additional observations from a re-analysis of the deposited data

How the results depend on the processing

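Of 48 values under alternative settings, 38 stayed within the interval of the value reported and 10 did not. The 8 rank correlations among them, the only values that could change sign, stayed positive. Some outcomes follow from the setting. A shorter or longer gene end distance can only lower or raise its share, and FOSL2 percentiles in the shortened list are ranks in another list. Counting all sequences changed nothing, since both lists hold assembled chromosomes only. With the FOSL2 list reduced to the length of the FOSB list, 19.7% of each list was shared, the median FOSB percentile of shared peaks was 65.7, their rank correlation 0.54 and their share near a gene end 2.70%. The share of FOSL2 peaks with FOSB was 2.93% at −log10 q of at least 5, 3.11% at fold of at least 5 and 3.21% without chromosome 19, a setting chosen after seeing the data, as were leaving out 0 h peaks and using transcription starts. The share of shared peaks near a gene end was 5.80% within 1 kb and 31.9% within 10 kb. No paired analysis was possible because each factor has 1 library. No library could be left out for the same reason.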
